A study of Sus scrofa with 22 samples.

Results

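The simple epithelial keratins KRT7, KRT8, KRT18 and KRT19 were examined across the whole pig embryo series. The members were chosen by name, not by their values, as the 4 keratins of single-layered epithelia. Of these 4 genes, 3 were found among the 25749 genes of the authors' deposited group tables, namely KRT7 (ENSSSCG00000038966), KRT8 (ENSSSCG00000000252) and KRT18 (ENSSSCG00000000253). KRT19 could be matched to no identifier and is named only.

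Keratins are the intermediate filament proteins of epithelial cells. A filament is built from pairs of an acidic type I keratin, such as KRT18 or KRT19, and a basic type II keratin, such as KRT7 or KRT8, so that a cell needs both types to make filaments. KRT8 and KRT18 are the first keratins of the mammalian embryo and are best known from trophectoderm, the outer epithelium that becomes the embryonic part of the placenta, while KRT7 marks trophoblast and several ductal epithelia. The filaments are anchored to desmosomes, the spot-like junctions between epithelial cells.

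The cells came from pig embryos collected between E0 and E14, in 20 sequencing libraries (P1 to P20), and from 2 libraries of pgEpiSC, stem cell lines derived from the epiblast of E10 embryos. No genotype, breed, sex or treatment is given for the embryos, and the sources used here do not say what low and high stand for in pgEpiSC_low and pgEpiSC_high. The authors' tables name 39 groups of cells: Oocyte, Zygote, 2C, 4C, 8C and Morula_E4; preICM_E5 and ICM_E6 (inner cell mass); preTE_E5 and TE (trophectoderm) of E6 to E10 and E12 to E14; Epiblast and Hypoblast of E7 to E10; Ectoderm and Mesdoderm (mesoderm, as the authors spell it) of E11 to E14; Endoderm of E11 and E12; Defi_Endoderm of E13 and E14; and the 2 pgEpiSC groups. Poly(A) RNA of single cells was amplified in a variant of Smart-seq2 in which each cell carries a barcode.

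The 1647 cells had a median of 274531 counts (5274 to 1796832), and the libraries held 7415760 to 39405309 counts. The groups ranged from 2 cells (TE_E9) to 129 cells (Hypoblast_E8). Each library reused barcodes of others (96 distinct barcodes, all of them in more than 1 library). The units of every test were sums of a group's or lineage's cells in a library, not cells. Nothing in the labels says that libraries came from separate embryos, so the p-values rest on the spread between sums of libraries, which may be technical. Libraries P13 and P19 stand apart at the cleavage stages, as described with the results they touch. The trophectoderm labels were checked with the summed level of 9 measured trophectoderm markers. It was 1683 to 2652 CPM (counts scaled to 1e+06 per sum) in TE_E6 to TE_E14. It was 796 CPM in preTE_E5 and at most 589 CPM (Mesdoderm_E14) elsewhere. GATA2, GATA3, TFAP2A, DAB2 and PTGS2 had their highest deposited group mean in trophectoderm. CDX2 was highest in Defi_Endoderm_E14, TFAP2C in Morula_E4, TEAD4 in Epiblast_E9 and ELF5 in Oocyte. The sum thus does not speak for each marker.

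In the RefSeq annotation of Sscrofa11.1, the build named in the submitters' processing notes, the 3 measured genes lie on chromosome 5. KRT7 spans 17553192 to 17570582 and is listed there with the biotype lncRNA. KRT8 spans 18172423 to 18180277, and KRT18, its type I partner, spans 18217686 to 18221432. KRT19 lies on chromosome 12, from 21115453 to 21119115. Keratins form a large family with near-identical copies, and the strand and the handling of shared reads are not given in the sources used here, so how reads of such copies were divided was not tested.

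Across the 39 groups, KRT8 and KRT18 were low up to the morula, high from E5 onward in every lineage, and highest in trophectoderm of E10. KRT7 was low in most groups, and its 7 highest means were all trophectoderm, with TE_E14 at the top. The levels here are the authors' means and SDs over cells of log2(CPM/10 + 1). A mean of at least 2 on this scale was reached by KRT8 in 33 groups, by KRT18 in 34 groups and by KRT7 in 8 groups.

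For KRT8, the 6 groups before E5 had means between 0.63 (Oocyte) and 1.88 (4C), and the next group in order, preICM_E5, had 5.25 ± 0.36 (SD, n = 34 cells). The highest mean was 8.39 ± 0.33 (SD, n = 16 cells) in TE_E10, followed by TE_E6 (8.28 ± 0.42, n = 75 cells) and Defi_Endoderm_E13 (8.17 ± 0.61, n = 12 cells). All post-cleavage groups therefore fell within a range of 5.25 to 8.39, with trophectoderm of E6 to E10 holding 5 of the top 6 places.

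For KRT18, the groups before E5 ran from 0.39 (8C) to 2.75 (Morula_E4), and the top of the order was again TE_E10 at 8.09 ± 0.46 (SD, n = 16 cells), then TE_E9 (7.79 ± 0.36, n = 2 cells) and TE_E8 (7.64 ± 0.41, n = 23 cells). The 2 lowest groups after the morula were pgEpiSC_high at 3.90 ± 1.26 (n = 96 cells) and Hypoblast_E7 at 4.19 ± 0.92 (n = 73 cells). KRT18 thus shared its highest groups with KRT8 and had a longer lower tail.

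For KRT7, Oocyte and Zygote were at 0 counts, which allows up to 0.941 CPM and 2.58 CPM (3 counts of each sum, counting error only). The highest means were TE_E14 at 5.92 ± 0.45 (SD, n = 11 cells), TE_E10 at 5.53 ± 0.37 (n = 16 cells), TE_E12 at 5.11 ± 0.48 (n = 9 cells) and TE_E13 at 4.83 ± 1.17 (n = 34 cells). TE_E8 (3.01 ± 1.47, n = 23 cells), TE_E9 (2.38 ± 0.89, n = 2 cells) and TE_E6 (2.09 ± 1.57, n = 75 cells) followed, and Defi_Endoderm_E14 at 2.02 ± 1.45 (n = 15 cells) was the highest group outside trophectoderm. TE_E7 at 0.91 ± 0.94 (n = 14 cells) stood in 23rd place, between Endoderm_E11 (0.94) and Hypoblast_E8 (0.86). By CPM of a group's summed counts, Defi_Endoderm_E13 and TE_E6 were both at 63.8. Defi_Endoderm_E14 was at 57.0, pgEpiSC_high at 50.2 and TE_E9 at 49.0. The order of these lower places thus depends on the measure. The top place of TE_E14 rests on P12, whose 10 cells summed to 642 CPM, while the 1 TE_E14 cell of P11 had 285 CPM.

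Most neighbours in these orders could not be separated by library. Of 37 neighbouring pairs for each gene, 23 for KRT7, 22 for KRT8 and 24 for KRT18 had a group with 1 library. The library sums of neighbours did not overlap in 3 pairs for KRT7, in 0 pairs for KRT8 and in 3 pairs for KRT18. For KRT7 these were TE_E13 above TE_E8, TE_E8 above TE_E6, and Mesdoderm_E14 and Defi_Endoderm_E13, where Mesdoderm_E14 had the higher mean over cells (1.43 against 1.41) but the lower library sums (25.8 to 49.3 CPM against 61.2 to 64.8 CPM). For KRT18 they were TE_E10 above TE_E8, TE_E6 above TE_E7, and Morula_E4 above 4C.

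**Figure D1:**
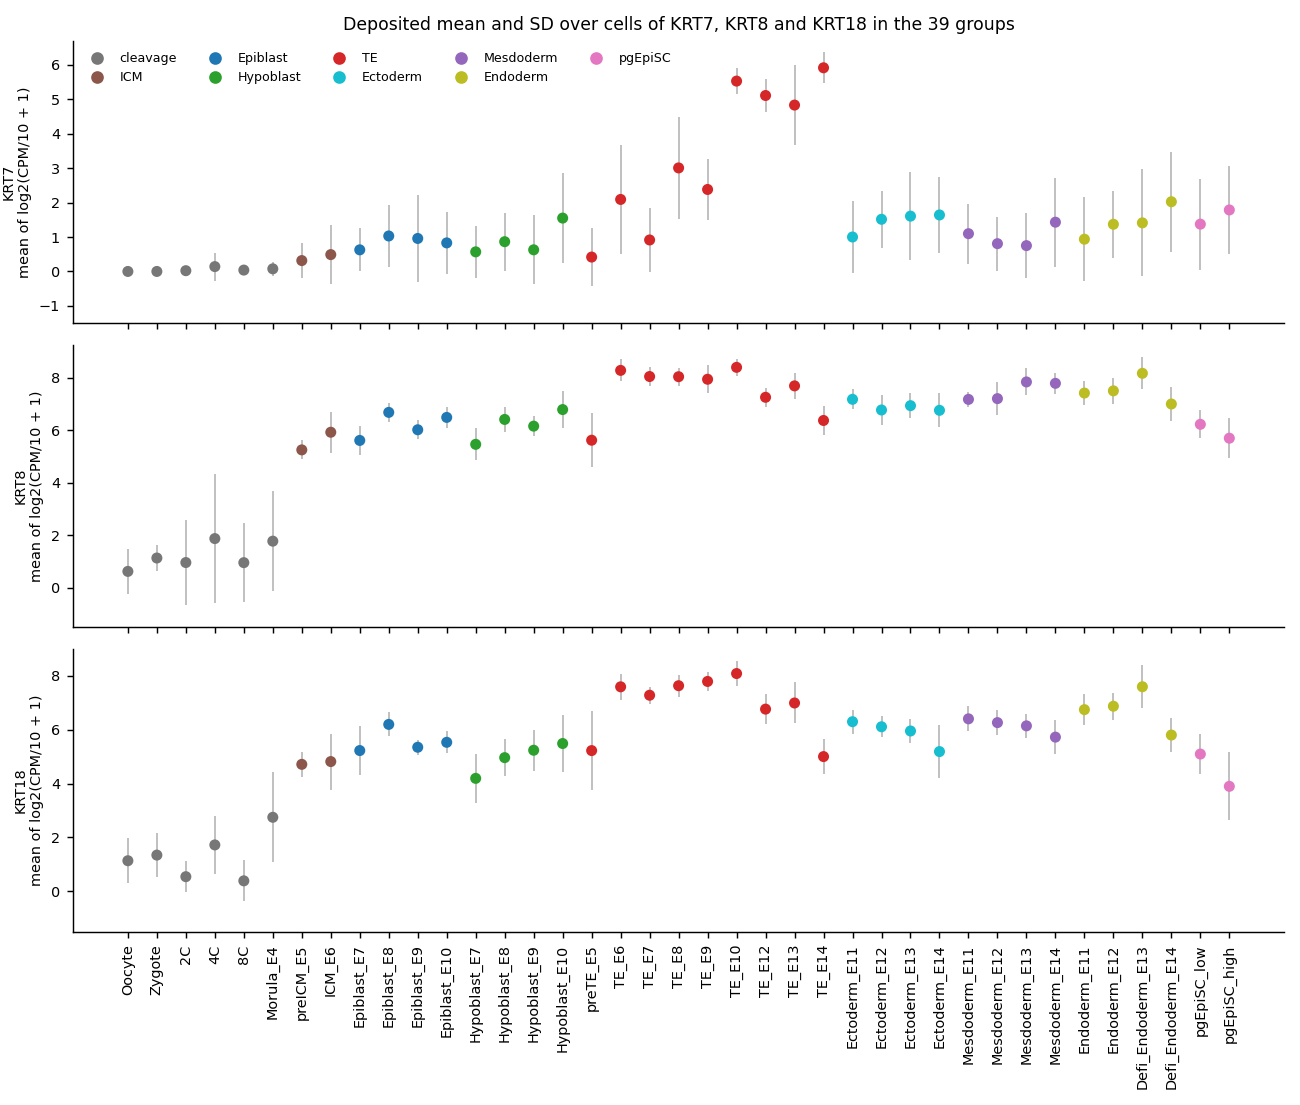
Mean of log2(CPM/10 + 1) over cells (points, with the SD over cells as bars) of KRT7, KRT8 and KRT18 in each of the 39 groups, as deposited by the authors. KRT8 and KRT18 reach at least 2 in 33 and 34 groups, and KRT7 in 8 groups, 7 of them trophectoderm.

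Before E5 KRT8 differed more between the libraries of a stage than between stages, while KRT18 was highest in the morula in both libraries. These levels are CPM of the summed counts of a stage in a library. KRT8 in 2C was 2.03 CPM in P1 and 150 CPM in P13. In 4C it was 4.43 CPM in P1 and 288 CPM in P13, in 8C 2.01 CPM in P20 and 141 CPM in P19, and in the morula 13.2 CPM in P1 and 296 CPM in P2. From 2C to the morula each stage thus had 1 library at 13.2 CPM or below and 1 library at 141 CPM or above, and the stages overlapped widely.

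KRT18 was also lower in the same libraries, at 2.03 CPM (P1) and 20.8 CPM (P13) in 2C and 22.6 CPM (P1) and 35.2 CPM (P13) in 4C. In 8C it was 0.298 CPM in P20 and 30.1 CPM in P19, and in the morula 82.4 CPM in P1 and 182 CPM in P2. Both morula sums lay above both 8C sums. By the median cell, KRT18 was 31.0 CPM in morula cells of P1 (cells from 0 to 879 CPM) and 175 CPM in those of P2. In 8C cells the median was 27.5 CPM in P19 and 0 CPM in P20. KRT7 was at most 1.54 CPM in any of these sums.

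The high libraries P13, P19 and P2 also held 62, 70 and 63 cells of E5 or later, in which KRT8 was at 1012, 1442 and 534 CPM. The low libraries P1 and P20 held none. In 8C cells of P19, KRT8 stood at 9.80% and KRT18 at 4.56% of their level in the later cells of that library. For comparison, 40 genes with at most 5 CPM in the 8C cells of P20 and at least 300 CPM in the later cells of P19 stood at a median of 4.70% (quartiles 3.92% and 6.20%). In P13, 9 such genes had a median of 10.0% in 2C cells beside 14.8% for KRT8 and 5.65% for KRT18, and 4 such genes had 17.1% in 4C cells beside 28.5% for KRT8 and 9.56% for KRT18. In 2C and 4C cells of P13 the 6 fibroblast markers summed to 107 and 170 CPM, against 1200 CPM in its later cells. In morula cells of P2 no gene met this criterion, and KRT8 and KRT18 stood at 55.5% and 39.3% of the later cells. The comparison genes were chosen from these same data. Whether the early keratin levels came from the cells themselves or from reads of other cells in the library (carry-over) was not tested.

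**Figure D2:**
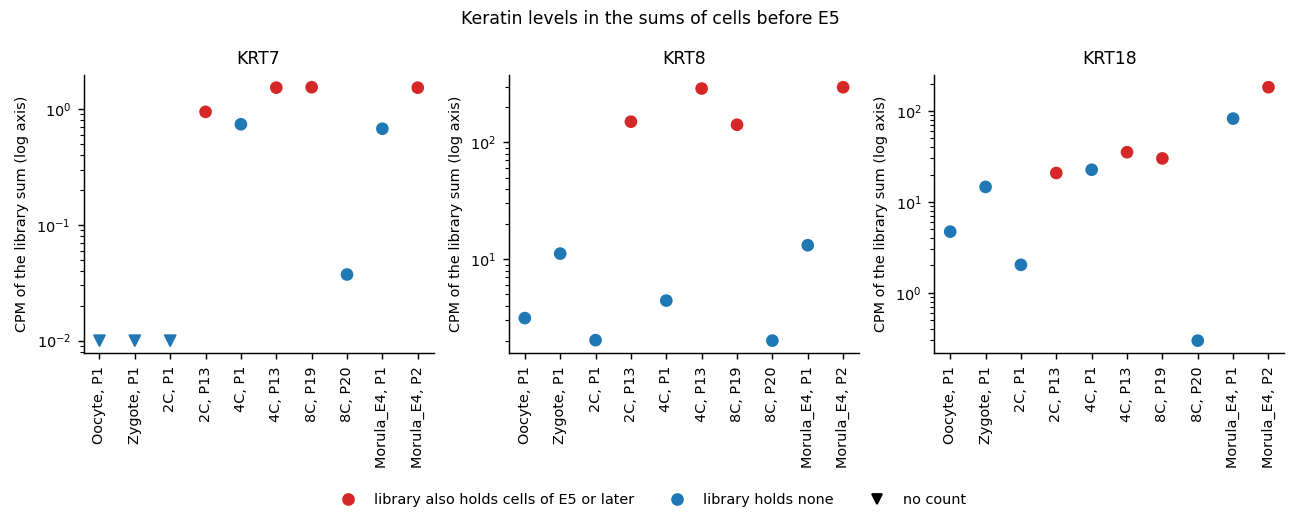
CPM (log axis) of KRT7, KRT8 and KRT18 in each library's summed cells of the stages before E5, in red for libraries that also hold cells of E5 or later and in blue for those that hold none, with a triangle for sums with no count. For KRT8 the libraries with later cells sit at 141 to 296 CPM and the others at 2.01 to 13.2 CPM.

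From the 8-cell stage to the morula, KRT18 rose, and KRT7 and KRT8 did not pass the test. Adjusted p-values here and below come from quasi-likelihood tests in edgeR, adjusted by Benjamini-Hochberg over all genes tested. In this step 29.8% of 23182 genes were called, and 1 of the 3 keratins. KRT18 rose by 3.07 ± 0.73 (log2 ± SE, 2 libraries each, adjusted p = 0.000957). KRT8 changed by 1.02 ± 0.96 (adjusted p = 0.441) and KRT7 by 0.21 ± 1.31 (adjusted p = 0.964). The KRT18 call held when each library was left out, P2 included, at 2.06 to 7.75. It was lost with sums of at least 10 cells (2.34). That setting removes the morula cells of P2 and also the small sums of other groups, with which the fit shares its spread. For KRT8 the sign turned without P2, to −2.55 (adjusted p = 0.142), and the change was called without P19, at 5.23 (adjusted p = 0.0042).

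No keratin was called from 2C to 4C, where 4.47% of genes were, or from 4C to 8C, where 11.2% were. The second of these rested on single libraries. From 4C to 8C KRT8 changed by −0.47 ± 0.95 (adjusted p = 0.814), by 4.35 without P13 (adjusted p = 0.00816) and by −5.14 without P19 (adjusted p = 0.0125). KRT18 changed by −0.56 ± 0.70 (adjusted p = 0.662) and by −5.57 without P19 (adjusted p = 3.83e-05). From morula to preTE_E5, where 0.0518% of genes were called, KRT7 changed by 2.69 ± 1.17, KRT8 by 1.86 ± 0.93 and KRT18 by 2.02 ± 0.66, with adjusted p = 0.612, 0.669 and 0.334.

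All 3 keratins rose in the first day of trophectoderm, from preTE_E5 to TE_E6. Per library, TMM-scaled CPM of KRT8 in preTE_E5 was 239 in P13, 346 in P14 and 795 in P2, and in TE_E6 4093 in P14 and 3455 in P15. KRT18, its type I partner, was at 232, 301 and 798 CPM in the same preTE_E5 sums and at 2334 and 2582 CPM in TE_E6. KRT7 was at 0.729, 1.45 and 12.2 CPM in preTE_E5 and at 76.8 and 106 CPM in TE_E6. The 2 groups did not overlap for any of the 3 genes, and P14, which held both, showed the rise within 1 library. In unscaled CPM, KRT8 in P13 was 256 in preTE_E5 cells and 288 in 4C cells. The part of carry-over in the preTE_E5 values of P13, here and below, was not tested.

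In this step 4.84% of 23182 genes were called, and 3 of the 3 keratins. KRT7 rose by 4.25 ± 0.81 (log2 ± SE, 3 libraries against 2, adjusted p = 0.000645), KRT8 by 3.04 ± 0.86 (adjusted p = 0.0277) and KRT18 by 2.47 ± 0.60 (adjusted p = 0.00787). The calls of KRT8 and KRT18 were lost without P14 (adjusted p = 0.299 and 0.146) or without P15 (0.0896 and 0.0543), which leave TE_E6 with 1 library whose spread is taken from the other groups, and that of KRT18 also without P13 (0.0522). Of the 9 trophectoderm markers 3 rose in the same step, GATA2, GATA3 and TFAP2A, and 0 fell, and of 6 fibroblast markers 3 fell, with their sum at 52.2 CPM in preTE_E5 and 1.49 CPM in TE_E6. Their part in the keratin change was not tested.

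Between E6 and E14 the trophectoderm keratins parted: KRT7 was higher and KRT18 lower in late than in early trophectoderm. KRT7 in the sums was 16.4 CPM (P8) and 11 CPM (P9) at E7, and 120 CPM (P3) and 193 CPM (P4) at E8. At E10 it was 462 CPM (P5) and 531 CPM (P6), and at E12 325 CPM (P10). At E13 it was 392 CPM (P10), 362 CPM (P18), 570 CPM (P19) and 443 CPM (P9), and at E14 646 CPM (P12). All sums of E10 and later lay above all sums of E6 to E8, and the 2 sums of E7 lay below those of E6 (76.8 and 106 CPM).

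KRT8 in trophectoderm was 3276 CPM (P8) and 1984 CPM (P9) at E7, 2707 CPM (P3) and 2870 CPM (P4) at E8, and 2740 CPM (P5) and 4025 CPM (P6) at E10. It was 1403 CPM (P10) at E12, between 1748 CPM (P18) and 3267 CPM (P10) at E13, and 734 CPM (P12) at E14. The E14 sum was the lowest from E6 onward, and the days E6 to E10 overlapped with E13.

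KRT18 followed a like course, from 1636 CPM (P8) and 1480 CPM (P9) at E7 to 1801 CPM (P3) and 2126 CPM (P4) at E8 and 2168 CPM (P5) and 2987 CPM (P6) at E10. It was 1047 CPM (P10) at E12, between 1099 CPM (P19) and 2621 CPM (P10) at E13, and 276 CPM (P12) at E14. Library P12, with 10 TE_E14 cells, was thus lowest for both KRT8 and KRT18 and highest for KRT7 among the trophectoderm sums from E6 onward.

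In late (E12 to E14) against early (E6 to E8) trophectoderm, 14.4% of 23182 genes were called, and 2 of the 3 keratins. KRT7 was higher by 2.94 ± 0.54 (log2 ± SE, 6 sums against 6, adjusted p = 7.75e-05; means of 471 and 87.2 CPM). KRT18 was lower, with a change of −1.35 ± 0.45 (adjusted p = 0.0361; 968 and 1993 CPM), and KRT8 changed by −1.18 ± 0.63 (adjusted p = 0.25; 1486 and 3064 CPM). The KRT18 change was −0.61 without P12 (adjusted p = 0.562), and the call was lost with smaller moves of the value without P4, P8, P15 or P18 (adjusted p = 0.0554 to 0.0637). With sums of at least 10 cells, which leave fewer libraries and no sum of TE_E7 or TE_E12, KRT7 was higher by 1.69 (adjusted p = 0.244). That setting thus compares other days. KRT8 was called as well without a filter on low counts (−1.2, adjusted p = 3.7e-06), and when the groups before E5 were left out of the fit (−1.19, adjusted p = 8.15e-05), an alternative chosen after seeing the data. The 6 late sums came from 5 libraries, since P10 gave 1 sum each of E12 and E13, and P9 gave a sum to both sides, without a block.

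Library P9 held trophectoderm of both E7 and E13. Within it KRT7 was 11 CPM at E7 and 443 CPM at E13, KRT8 was 1984 and 2439 CPM, and KRT18 was 1480 and 1440 CPM. The KRT7 difference was therefore present inside a library, and the KRT8 and KRT18 values of E13 lay within 1.5 times those of E7 there. TE_E14 carried other markers as well: its 6 fibroblast markers summed to 566 CPM, against 0 to 34.4 CPM in TE_E6 to TE_E13, and its 8 amnion markers, of which GATA3, TFAP2A and HAND1 are also expressed by trophoblast, to 1731 CPM. Their part in the low KRT8 and KRT18 of TE_E14 was not tested.

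The single day steps of trophectoderm were not called. From TE_E6 to TE_E7, with 0.755% of genes called, KRT7 changed by −2.67 ± 0.93 (adjusted p = 0.143), and from TE_E7 to TE_E8, with 0.0302% called, by 3.45 ± 0.95 (adjusted p = 0.157). DESeq2 called both, at −2.78 (adjusted p = 0.0393) and 3.44 (adjusted p = 0.0262). From TE_E8 to TE_E10, with 0.134% called, KRT7 changed by 1.66 ± 0.83 (adjusted p = 0.697). The changes of KRT8 and KRT18 in these steps lay between −0.66 and 0.39.

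**Figure D3:**
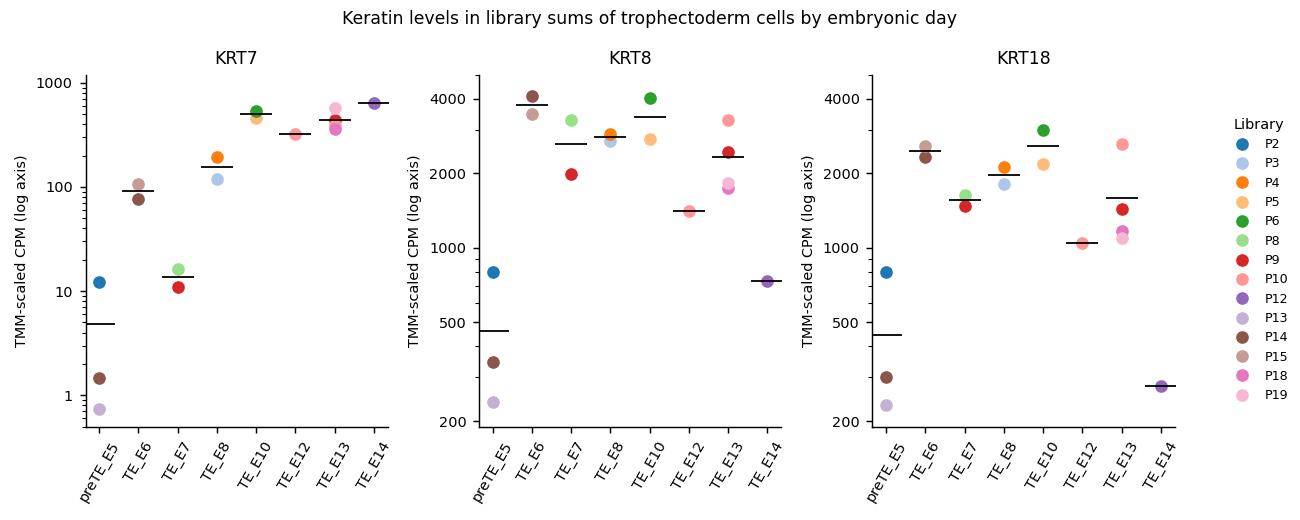
TMM-scaled CPM (log axis) of KRT7, KRT8 and KRT18 in each library's summed trophectoderm cells by embryonic day, 1 coloured point per library, with the mean of a day as a black dash. KRT7 climbs from 0.729 to 12.2 CPM in preTE_E5 to 646 CPM in TE_E14 with low values at E7, while KRT8 and KRT18 are lowest after E5 in TE_E14, at 734 and 276 CPM.

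Within trophectoderm groups, KRT7 differed between cells at early days and was found in nearly all cells from E10. Over 100 CPM of KRT7 were found in 1 of 60 preTE_E5 cells, 16 of 75 TE_E6 cells, 0 of 14 TE_E7 cells, 9 of 23 TE_E8 cells and 0 of 2 TE_E9 cells (23.7 and 70.5 CPM). At E10 it was 16 of 16 cells, at E12 9 of 9, at E13 30 of 34 and at E14 11 of 11. In TE_E6, 15 cells had no KRT7 count, the median was 34.8 CPM and the highest cell had 363 CPM, whereas the TE_E10 cells ranged from 252 to 722 CPM. In the other groups together 50 of 1403 cells passed 100 CPM. Among them were 9 of 90 Hypoblast_E10, 9 of 96 pgEpiSC_high and 2 of 12 Defi_Endoderm_E13 cells. The highest Hypoblast_E10 cell had 216 CPM in P5 and 197 CPM in P6, which also held TE_E10. In P16, which held no trophectoderm, it had 59.3 CPM. KRT7 in summed Ectoderm_E14 cells was 49.3 CPM in P12, beside TE_E14 at 642 CPM, and 7.62 and 11.8 CPM in P11 and P13. The part of carry-over in these values was not tested.

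Because cells differed in depth, each was also thinned to 20000 counts. A KRT7 count was then present in 8.77% of preTE_E5 cells, 46.6% of TE_E6, 21.4% of TE_E7, 60.9% of TE_E8, 50% of TE_E9 (1 of 2 cells), 97.0% of TE_E13 and 100% of TE_E10, TE_E12 and TE_E14 cells. In 8C cells the share was 0% thinned and 12.5% unthinned, with 9 of 15 cells of P19 and 1 of 65 cells of P20 holding a KRT7 count at full depth. In Epiblast_E10 it was 21.9% (unthinned 68.0%). The TE_E7 share (3 of 14 cells, exact Clopper-Pearson interval 4.66% to 50.8%) lay close to that of Epiblast_E10. Intervals and floors cover counting error only, since reads of amplified cDNA may not be independent molecules.

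In libraries that held trophectoderm together with another lineage of E7 to E10, all 3 keratins were higher in trophectoderm. Against epiblast, the lineage of the embryo proper, 14.9% of 9872 genes were called, and 3 of the 3 keratins. In the 4 libraries KRT8 in trophectoderm and epiblast was 2634 and 976 CPM (P4), 2764 and 881 CPM (P5), 2947 and 445 CPM (P8), and 2272 and 541 CPM (P9). KRT18 was 1951 and 744 CPM (P4), 2273 and 607 CPM (P5), 1471 and 389 CPM (P8), and 1695 and 465 CPM (P9). KRT7 was 177 and 6.97 CPM (P4), 402 and 22.2 CPM (P5), 14.8 and 2.43 CPM (P8), and 12.6 and 8.16 CPM (P9). Every trophectoderm sum of KRT8 and KRT18 lay above every epiblast sum, while the KRT7 sums of E7 trophectoderm (P8 and P9) overlapped with those of epiblast.

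The log2 differences against epiblast were 3.20 ± 0.62 for KRT7 (SE, 4 libraries as blocks, adjusted p = 0.00298), 1.97 ± 0.25 for KRT8 (adjusted p = 0.000115) and 1.77 ± 0.24 for KRT18 (adjusted p = 0.000198). Each was higher in trophectoderm in 4 of 4 libraries. The KRT7 differences ran from 0.57 (P9, E7) to 4.48 (P4, E8). In P5 day and lineage are mixed: its trophectoderm held 3 cells of E8 and 7 of E10 (KRT7 122 and 495 CPM, unscaled), and its epiblast 8 cells of E8 (23.1 CPM). With library and day as the block, an alternative chosen after seeing the data, the differences were 2.67 for KRT7 (adjusted p = 0.0454), 2.05 for KRT8 (adjusted p = 0.000527) and 1.7 for KRT18 (adjusted p = 0.00483).

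Against hypoblast, the extraembryonic endoderm, 21.1% of 10675 genes were called, and 3 of the 3 keratins, each higher in trophectoderm in 6 of 6 libraries. The differences were 2.95 ± 0.40 for KRT7 (SE, 6 libraries as blocks, adjusted p = 0.000139), 2.11 ± 0.20 for KRT8 (adjusted p = 6.46e-06) and 2.82 ± 0.20 for KRT18 (adjusted p = 5.06e-07). Per library they spanned 0.25 to 3.76 for KRT7, 1.58 to 2.79 for KRT8 and 2.41 to 3.31 for KRT18. The 2 smallest KRT7 differences, 0.25 (P9) and 1.66 (P8), were those of E7. The median difference over all genes was −0.14 in this comparison.

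Between hypoblast and epiblast, 23.0% of 13265 genes were called, and 1 of the 3 keratins. KRT18 was lower in hypoblast, with a difference of −0.67 ± 0.16 (SE, 6 libraries as blocks, adjusted p = 0.0106), and lower in 6 of 6 libraries, with differences from −0.01 (P17) to −1.29 (P8). KRT8 differed by −0.02 ± 0.11 (adjusted p = 0.925) and KRT7 by 0.46 ± 0.36 (adjusted p = 0.402). Without the library block the KRT18 difference was −0.68 (adjusted p = 0.0824).

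At E5 and E6, trophectoderm was compared with inner cell mass in 3 libraries. KRT8 in trophectoderm and inner cell mass was 2801 and 772 CPM (P14), 2906 and 425 CPM (P15), and 747 and 370 CPM (P2). KRT18 was 1612 and 462 CPM, 2171 and 150 CPM, and 749 and 265 CPM in the same libraries, and KRT7 51.9 and 9.20 CPM, 89.3 and 2.85 CPM, and 11.4 and 3.70 CPM. All 3 genes were higher in trophectoderm in 3 of 3 libraries, with the smallest gap in P2, whose trophectoderm cells were of E5 alone. In P14 day and lineage are mixed: its trophectoderm held 8 cells of preTE_E5 and 57 of TE_E6, and its inner cell mass 18 cells of ICM_E6.

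The log2 differences from inner cell mass were 2.87 ± 0.68 for KRT7, 1.87 ± 0.30 for KRT8 and 2.32 ± 0.44 for KRT18 (SE, 3 libraries as blocks, adjusted p = 0.19, 0.165 and 0.168). In this comparison 0% of 11142 genes were called by edgeR's quasi-likelihood test, with 1559 genes at an unadjusted p under 0.05. DESeq2 called 861 genes, among them KRT7 (adjusted p = 0.000477), KRT8 (adjusted p = 1.37e-07) and KRT18 (adjusted p = 0.0114).

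From E12 to E14, KRT7 stood far above ectoderm in trophectoderm, while KRT8 and KRT18 differed less. Here 25.8% of 12662 genes were called, and 2 of the 3 keratins. KRT7 in trophectoderm and ectoderm was 357 and 20.7 CPM (P10), 653 and 44.8 CPM (P12), 362 and 32.1 CPM (P18), and 581 and 32.1 CPM (P19). Its log2 differences were between 3.46 and 4.14 in 4 of 4 libraries, and the groups did not overlap (3.91 ± 0.23, SE, adjusted p = 1.76e-08).

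KRT8 in trophectoderm and ectoderm was 1827 and 888 CPM (P10), 742 and 1025 CPM (P12), 1752 and 1096 CPM (P18), and 1856 and 1027 CPM (P19). KRT18 was 1397 and 589 CPM (P10), 279 and 402 CPM (P12), 1171 and 529 CPM (P18), and 1119 and 553 CPM (P19). In P10 the trophectoderm was of E12 and E13 and the ectoderm of E12. In P12, of E14, both were lower in trophectoderm, and in the other 3 libraries, of E12 and E13, both were higher.

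The KRT8 difference from ectoderm was 0.53 ± 0.24 (SE, adjusted p = 0.109) and that of KRT18 0.74 ± 0.26 (adjusted p = 0.0493). Without P12 they were 0.86 (adjusted p = 7.66e-05) and 1.14. The KRT18 call was lost without P10 (adjusted p = 0.128), P18 (0.252) or P19 (0.168), without the library block (0.93, adjusted p = 0.1) and with library and day as the block (0.67, adjusted p = 0.0657), an alternative chosen after seeing the data. The median difference over all genes was −0.14 in this comparison too.

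Among the germ layers, KRT8 was higher in mesoderm than in ectoderm by a margin that passed the test narrowly. Of 12555 genes 3.62% were called, and 1 of the 3 keratins. KRT8 in mesoderm and ectoderm was 1508 and 1581 CPM (P6, E11), 1163 and 923 CPM (P10, E12), 1670 and 1139 CPM (P18, E13) and 2874 and 1049 CPM (P19, E13). At E14 it was 2007 and 1033 CPM (P12) and 2614 and 881 CPM (P13). KRT8 was thus higher in mesoderm in 5 of 6 libraries, with P6 near equality.

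The KRT8 difference was 0.80 ± 0.19 (SE, 6 libraries as blocks, adjusted p = 0.0455). The call was lost without P12, P13, P18 or P19 (adjusted p = 0.112 to 0.157) and without the library block (0.84, adjusted p = 0.0857). KRT18 differed by 0.30 ± 0.13 (adjusted p = 0.237) and KRT7 by −0.66 ± 0.46 (adjusted p = 0.492). The 6 fibroblast markers, which mesoderm also expresses, summed to 4332 CPM in Mesdoderm_E14 and to 532 CPM in Ectoderm_E14, and their part was not tested.

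Endoderm, here the authors' groups Endoderm_E12 (P10) and Defi_Endoderm_E13 and E14 (P18, P19 and P11) pooled, was compared with ectoderm in 4 libraries, with 1.31% of 12613 genes and 0 of the 3 keratins called. KRT18 in endoderm and ectoderm was 1188 and 614 CPM (P10, E12), 2489 and 546 CPM (P18, E13), 1287 and 573 CPM (P19, E13) and 479 and 420 CPM (P11, E14). KRT8 was 1816 and 925 CPM, 3087 and 1131 CPM, 2429 and 1065 CPM, and 1008 and 1071 CPM in the same libraries. The differences of KRT8 and KRT18 were wide at E12 and E13 and small or absent in P11. KRT7 was 18.1 and 21.6 CPM (P10), 68.9 and 33.1 CPM (P18), 69.9 and 33.3 CPM (P19), and 51.5 and 7.51 CPM (P11). Its difference was thus widest in P11, and in P10 it was lower in endoderm.

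The differences between endoderm and ectoderm were 1.12 ± 0.30 for KRT18 (SE, adjusted p = 0.09), 0.89 ± 0.29 for KRT8 (adjusted p = 0.2) and 1.15 ± 0.55 for KRT7 (adjusted p = 0.44). At an unadjusted p under 0.05 the comparison held 1460 genes, and DESeq2 called KRT18 (1.13, adjusted p = 0.026). Without P11 both KRT8 (1.22, adjusted p = 6.87e-05) and KRT18 (1.44, adjusted p = 0.000271) were called.

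**Figure D4:**
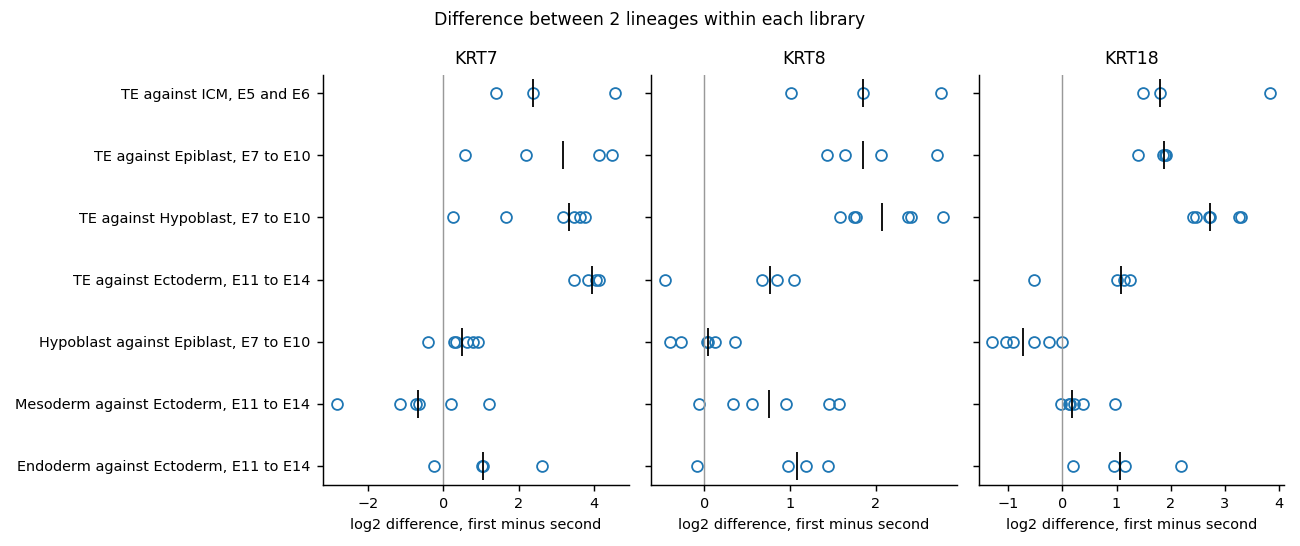
Log2 difference between a pair of lineages within each library (circles, with their median as a black bar) for KRT7, KRT8 and KRT18. All points of trophectoderm against epiblast and hypoblast lie above 0, and those against ectoderm include P12 at −0.47 for KRT8 and −0.53 for KRT18.

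The pgEpiSC lines were set beside the E10 epiblast they were derived from. KRT8 was 829 CPM (low) and 614 CPM (high) in the lines and 868 CPM (P15) and 713 CPM (P16) in Epiblast_E10. KRT18 was 394 and 221 CPM in the lines and 402 and 394 CPM in Epiblast_E10, and KRT7 32.6 and 52.0 CPM in the lines against 12.7 and 8.76 CPM. Both lines lay above both epiblast sums for KRT7, and the KRT8 and KRT18 ranges met or overlapped. With 0.397% of genes called, 0 of the 3 keratins were: KRT7 changed by 1.94 ± 0.84 (adjusted p = 0.476), KRT8 by −0.15 ± 0.93 and KRT18 by −0.43 ± 0.66 (adjusted p = 1 for both). Against Epiblast_E8, where 2.18% of genes and again 0 of the 3 keratins were called, the lines differed by 1.39 ± 0.86 for KRT7, −0.45 ± 0.93 for KRT8 and −1.26 ± 0.67 for KRT18 (adjusted p = 0.489, 0.981 and 0.383).

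The 2 pgEpiSC groups have 1 library each and entered the fit as groups of 1 sum. The spread in the tests against epiblast was therefore taken from other groups. The values of pgEpiSC_low and pgEpiSC_high beside each other are given without a test. In unscaled CPM, KRT18 was 361 (95% Poisson interval 350 to 371) in pgEpiSC_low and 213 (207 to 220) in pgEpiSC_high, and KRT8 was 758 (744 to 773) and 593 (582 to 603). KRT7 was 29.8 (26.9 to 32.8) in pgEpiSC_low and 50.2 (47.1 to 53.4) in pgEpiSC_high. In these 2 libraries the KRT7 value was thus larger and the KRT8 and KRT18 values smaller in the one named high. The intervals cover counting error only and hold no spread between libraries, so they do not show that pgEpiSC_low and pgEpiSC_high differ.

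The other stage steps of inner cell mass, epiblast, hypoblast, ectoderm and mesoderm gave no keratin call. The shares of genes called were 1.84% from ICM_E6 to Epiblast_E7, 0.604% from Epiblast_E7 to Epiblast_E8 and 0.168% from Epiblast_E10 to Ectoderm_E11. They were 0.267% from Ectoderm_E13 to Ectoderm_E14, 0% from Mesdoderm_E13 to Mesdoderm_E14 (1816 genes at an unadjusted p under 0.05), 1.01% from ICM_E6 to Hypoblast_E7 and 0.237% from Hypoblast_E7 to Hypoblast_E8. From Epiblast_E10 to Ectoderm_E11 the values were 1.33 ± 0.84 for KRT7, 0.97 ± 0.94 for KRT8 and 1.11 ± 0.66 for KRT18 (SE, adjusted p = 0.706, 0.851 and 0.684).

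The balance of the type II keratin KRT8 to the type I keratin KRT18 differed between groups in steps that the levels alone do not show. Since both lengths are fixed, the ratio of their counts can be compared between groups. It was 0.996 to 1.15 in the 3 libraries of preTE_E5, 1.05 to 2.0 in trophectoderm of E6 to E13, 1.33 (P11, 1 cell) and 2.66 (P12, 10 cells) in TE_E14, and 1.14 to 1.16 in Epiblast_E7. It was 1.81 to 2.16 in Epiblast_E10 and 1.67 to 2.90 in hypoblast. P12 thus lay above the earlier trophectoderm libraries and within the range of hypoblast. The preTE_E5 and Epiblast_E7 libraries therefore lay below those of Epiblast_E10 and hypoblast.

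Later the ratio of KRT8 to KRT18 was 1.77 to 1.82 in Ectoderm_E11 and 2.55 to 2.65 in the 3 libraries of Ectoderm_E14. In mesoderm it was 1.73 at E11 and 1.72 at E12 (1 library each), 2.80 to 3.90 at E13 and 3.32 to 4.26 at E14. In pgEpiSC_low and pgEpiSC_high it was 2.10 and 2.78. Ectoderm of E14 did not overlap with that of E11, and the highest ratio from E5 onward, 4.26, was in Mesdoderm_E14. These differences in ratio were not tested.

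**Figure D5:**
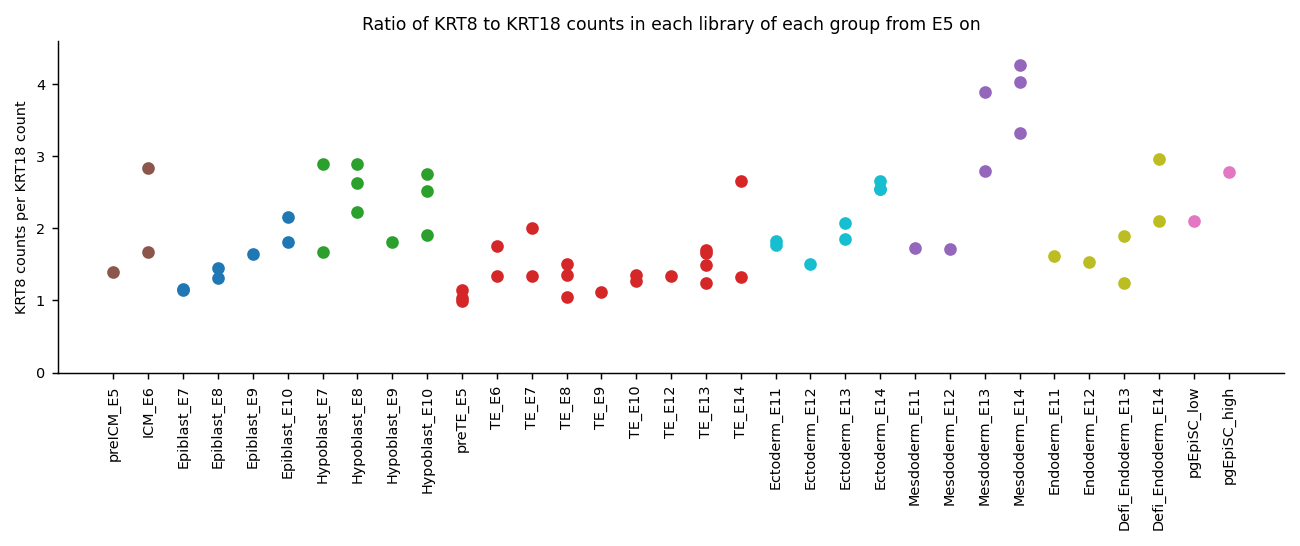
KRT8 counts per KRT18 count in each library's summed cells of a group (points), for sums with at least 30 counts of each gene. Ratios lie at 0.996 to 1.15 in preTE_E5 and at 3.32 to 4.26 in Mesdoderm_E14.

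KRT8 and KRT18 also moved together between groups and between cells. Over the 39 group means Pearson's r was 0.966 for KRT8 with KRT18, 0.511 for KRT7 with KRT8 and 0.525 for KRT7 with KRT18. The groups before E5 were low in both KRT8 and KRT18 and the later groups high, and this split enters r. The same groups enter the correlations over group means given below. No r over the later groups alone was computed. Within a group and library of at least 20 cells (29 sets), the median r over cells was 0.628 for KRT8 with KRT18 (−0.413 to 0.941) and 0.0260 for KRT8 with KRT7. Cells of a set share a library, and depth moved with the levels: the median r of KRT8 with the cell's total count was −0.598 (−0.948 to 0.222). These are descriptions, and groups share libraries.

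By deposited group means, the 3 genes most like KRT7 among 9089 genes compared were RDH16 (r = 0.937 over 39 groups), SLC39A2 (r = 0.923) and PLS1 (r = 0.903). RDH16 and SLC39A2 were highest in TE_E14, as KRT7 was, and PLS1, an actin-bundling protein of microvilli, in TE_E10. Most like KRT8 were KRT18, NME2 (r = 0.933), a nucleoside diphosphate kinase, and GAPDH (r = 0.896), the glycolytic enzyme. Most like KRT18 were KRT8, NPC2 (r = 0.871), a cholesterol carrier of the lysosome, and NME2 (r = 0.866).

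Genes of desmosomes, to which keratin filaments attach, and of other keratin-binding proteins (1 list) were more often higher than lower in trophectoderm. Against hypoblast 8 of 14 tested were higher and 1 lower (21.1% of all genes were called in either direction), with a median log2 difference of 1.37 beside −0.14 for all genes. DSC2 and DSG2, desmosomal cadherins, were higher by 4.34 ± 0.26 and 3.14 ± 0.21 (SE, 6 libraries), PKP2, a plakophilin, by 4.09 ± 0.34, and DSP, which binds keratin filaments, by 3.69 ± 0.27. PPL, a plakin, was the 1 that was lower (−1.89 ± 0.47). Against epiblast 6 of 14 were higher and 0 lower (14.9% of all genes called, median 1.28, all genes −0.05), and against ectoderm 9 of 16 were higher and 2 lower (25.8% of all genes called, median 0.99, all genes −0.14). In the step from 8C to morula 8 of 18 rose and 3 fell (29.8% of all genes called, median 1.34, all genes 0), among them PKP2 by 6.90 ± 0.76 and JUP, plakoglobin, by 5.24 ± 0.51. From preTE_E5 to TE_E6, where all 3 measured keratins rose, 3 of 18 rose, namely PKP3, DSG2 and PERP, and 0 fell (4.84% of all genes called, median −0.01, all genes −0.06).

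Other epithelial genes were likewise more often higher in trophectoderm. Against ectoderm 12 of 20 tested were higher and 0 lower (25.8% of all genes called, median 1.22, all genes −0.14), among them CLDN4, a tight junction claudin, by 2.57 ± 0.25 (SE, 4 libraries). Against hypoblast 9 of 19 were higher and 2 lower (21.1% of all genes called, median 0.65, all genes −0.14), with CDH1, the epithelial cadherin, higher by 2.83 ± 0.25. Against epiblast 7 of 18 were higher and 0 lower (14.9% of all genes called, median 0.50, all genes −0.05), and CDH1 differed by −0.16 ± 0.31 (adjusted p = 0.781). VIM, vimentin, the intermediate filament of mesenchymal cells, was lower in trophectoderm than in epiblast (−4.66 ± 0.59, adjusted p = 0.000102) and did not pass against hypoblast (−1.39 ± 0.72, adjusted p = 0.2). Over the 39 group means VIM had r = 0.138 with KRT8, and DSG2 had r = 0.835.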

How the data were processed

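The gene counts per cell were used as deposited; the submitters' processing notes name UMI-tools, featureCounts 1.6.4, STAR 2.7.1a and Sscrofa11.1, in roles not given in the sources used here. The authors' group means and SDs are on a log2 scale, as deposited: log2(CPM/10 + 1) over cells, with CPM over pig genes (found by recomputing them; the 92 spike-ins, 1.80% of counts, were left out). The deposited SD is another value per gene, over cells. The group of each cell was found by a least-squares fit of the deposited means on the cells, which gave each of 1647 cells a weight of 0.999 to 1.00 times 1 over its group's size, and the recomputed keratin means matched the deposited ones within 0.00055. Gene names came from the reference table for 14800 identifiers and from the deposited means alone for 1403.

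Counts of a library's cells of 1 group were summed where there were at least 5 such cells (for Oocyte 1, and for 2C, 4C and Zygote 2). Stage steps were tested in 1 fit of 67 sums, and lineages within libraries with the library as a block, by edgeR 4.0.16's quasi-likelihood test (filterByExpr, TMM scaling, trended dispersion, Benjamini-Hochberg adjustment, threshold 0.05). The SE is the log2 change divided by the root of the test's F statistic. Late trophectoderm was the mean of E12 to E14 and early that of E6 to E8, days weighted equally. On simulated data, 47.5% of 4-fold changes were recovered for TE_E8 to TE_E10 (21950 genes) and 100% for trophectoderm against hypoblast (10220 genes). The changes were put only into genes above a set level, and counts were drawn from the fitted trended dispersion. The shares therefore do not cover genes of low level or a spread particular to a gene. DESeq2 1.42.0 was an alternative. No doublet calling was done. Pairing rests on lineages sharing a library.

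The members, gene lists and tests were chosen with earlier results of these data known. The named genes were the keratins, the 3 genes most correlated with each over the deposited group means (highest mean at least 2), and members of the lists. Tools were R 4.3.3, Python 3.11.15, numpy 2.4.6, pandas 2.3.3, scipy 1.17.1 and matplotlib 3.10.9.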

Additional observations from a re-analysis of the deposited data

Results flagged for a closer look

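In trophectoderm against epiblast, the KRT18 difference of library P4 was 1.39, below the other 3 libraries at 1.86 to 1.92, and its gap was 0.897 of the range, above Dixon's 95% critical value for 4 values. In trophectoderm against ectoderm, the KRT18 difference of P12 was −0.526, below the other 3 at 1.01 to 1.24 (gap 0.87 of the range). Of 21 such sets of values examined 2 stood out, and chance gives about 1 in 20.

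KRT7 in mesoderm against ectoderm had a mean difference of −1.74 in the 2 libraries of E13 and of 0.705 in the 2 libraries of E14, with both E13 libraries below 0 and both E14 libraries above it. The difference between these days was not tested.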

How the results depend on the processing

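The calls of all 3 keratins in trophectoderm against epiblast and hypoblast held in every alternative that gave a value. The number of keratins called changed elsewhere. Without a filter on low counts it was 2 instead of 0 from 2C to 4C and from morula to preTE_E5, 2 instead of 1 from 8C to morula, 1 instead of 0 from TE_E6 to TE_E7, from TE_E7 to TE_E8 and in pgEpiSC against Epiblast_E10, 3 instead of 2 in late against early trophectoderm, and 3 instead of 0 in trophectoderm against inner cell mass. With DESeq2 it was 1 for both trophectoderm steps and for endoderm against ectoderm, and 3 for trophectoderm against inner cell mass. Without a trended dispersion it was 1 from preTE_E5 to TE_E6 (instead of 3), 1 in late against early trophectoderm and in trophectoderm against ectoderm (instead of 2), and 0 in hypoblast against epiblast and mesoderm against ectoderm (instead of 1). With at least 10 cells per sum it was 0 from 8C to morula, 1 from preTE_E5 to TE_E6, 0 in late against early trophectoderm, 0 in hypoblast against epiblast, 1 in trophectoderm against ectoderm and 0 in mesoderm against ectoderm. In mesoderm against ectoderm it was also 0 with DESeq2's size factors and with cells of at least 6000 detected genes (114 cells removed).

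Without the replicate block by library it was 0 in hypoblast against epiblast, 1 in trophectoderm against ectoderm and 0 in mesoderm against ectoderm, and 1 in trophectoderm against ectoderm with library and day as the replicate block (chosen after seeing the data). A block in the stage steps could be fitted for 2C and 4C alone, and called 0. Neither block changed any other keratin call.

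Leaving out 1 library gave 0 to 2 keratins called from 4C to 8C, 1 to 2 from 8C to morula, 1 to 3 from preTE_E5 to TE_E6, 1 to 2 in late against early trophectoderm, 1 to 3 in trophectoderm against ectoderm, 0 to 1 in mesoderm against ectoderm and 0 to 2 in endoderm against ectoderm.

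Directions turned as follows; none of these changes was called in the main setting. With at least 10 cells per sum, KRT7 and KRT8 from 8C to morula were −0.23 and −2.56, and KRT8 and KRT18 from Mesdoderm_E13 to E14 0.24 and 0.01. With cells of at least 6000 genes, KRT7 from 8C to morula was −0.14, KRT8 from Mesdoderm_E13 to E14 0.02 and KRT8 from TE_E7 to TE_E8 −0.24. KRT8 in hypoblast against epiblast was 0.06 without the filter. Leaving out 1 library gave, from 4C to 8C, −3.48 to 0.94 for KRT7, −5.14 to 4.35 for KRT8 and −5.57 to 0.45 for KRT18, and from 8C to morula −0.87 to 3.27 for KRT7 and −2.55 to 5.23 for KRT8. It gave −1.43 to 0.9 for KRT7, −0.65 to 0.18 for KRT8 and −0.12 to 1.48 for KRT18 from ICM_E6 to Epiblast_E7, and −0.49 to 1.32, −0.81 to 0.02 and −1.17 to 0.42 from ICM_E6 to Hypoblast_E7. For KRT8 it gave −0.4 to 0.47 from Mesdoderm_E13 to E14, −0.2 to 0.41 from TE_E7 to TE_E8, −0.36 to 0.07 in pgEpiSC against Epiblast_E10 and −0.14 to 0.07 in hypoblast against epiblast.

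The log2 difference of pgEpiSC_high from pgEpiSC_low was 0.75 for KRT7, −0.36 for KRT8 and −0.76 for KRT18 from sums, 0.5, −0.44 and −1.04 from means over cells, and 0.41, −0.53 and −1.2 on the deposited scale. That of TE_E10 from Epiblast_E10 was 5.29, 1.82 and 2.46 from sums, 1.89 for KRT8 and 2.59 for KRT18 from means over cells, and 4.7, 1.9 and 2.55 on the deposited scale. Except where the setting itself uses fewer cells or libraries, the cause of these moves was not tested. With sums of at least 10 cells several lineage comparisons had too few libraries to be fitted. At the cleavage stages, at most 2 libraries per stage and 2 to 65 cells per sum limit what could be told, and KRT7 there was at or near the level of single counts.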

Other observations

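Of the other keratins on the list, 20 of 24 were in the count table and 11 could be tested in the stage steps. From 8C to morula KRT10, an early differentiation keratin of skin, rose by 4.73 ± 0.65 (log2 ± SE) and KRT20, a keratin of intestinal epithelium, by 6.01 ± 1.14, with KRT222 the third of the 11 that rose and 0 that fell, beside 29.8% of all genes called in this step. From preTE_E5 to TE_E6, where the simple epithelial keratins rose, 0 of 11 were called (4.84% of all genes were). KRT10 was lower in trophectoderm than in hypoblast (−1.37 ± 0.25) and than in ectoderm (−2.03 ± 0.25).

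A gene named KRT14 by the deposited table alone (ENSSSCG00000017448), whose identity is therefore uncertain and which could be another type I keratin, KRT19 included, rose from TE_E6 to TE_E7 by 3.48 ± 0.78 (adjusted p = 0.0198) and was higher in late than in early trophectoderm by 2.88 ± 0.45 (adjusted p = 5.08e-06). Its means in the 2 groups of sums were 952 and 314 CPM. Its highest group mean was in Endoderm_E12, at 7.09 ± 0.51 (SD over cells), and over the 39 groups it had r = 0.746 with KRT8 and 0.567 with KRT7.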
